A study of Saccharomyces cerevisiae with 12 samples.

Results

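The genes described here encode the small-subunit (SSU) processome of the budding yeast Saccharomyces cerevisiae. They are 47 of the 6002 protein-coding genes on the 16 nuclear chromosomes, chosen by symbol as known components of the particle, and all 47 were found in the gene table of assembly R64. RNA polymerase II (Pol II) was mapped over them by chromatin immunoprecipitation and sequencing in 2 strains, dbp2Δ and wild type. Dbp2 is a DEAD-box RNA helicase that acts on nascent transcripts, and in the dbp2Δ strain its gene was replaced by the KanMx6 marker (dbp2::KanMx6). Both strains were MATa, carried the deletions his3Δ1, leu2Δ0, met15Δ0 and ura3Δ0, and expressed the Pol II subunit Rpb3 with a 3XFLAG tag, through which Pol II was precipitated. Cells were grown at 30 °C in YP medium with 2% glucose to an optical density of 0.5 to 0.7 and fixed with 1% formaldehyde for 15 min. Each strain gave 3 immunoprecipitates and 3 inputs, called biological replicates by the submitters, 12 libraries in all.

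The SSU processome assembles on the nascent ribosomal RNA precursor, which RNA polymerase I transcribes. With the U3 small nucleolar RNA at its centre it folds, modifies and cuts the part of the precursor that becomes the 18S rRNA of the small ribosomal subunit. Its protein genes are Pol II genes of the ribosome biogenesis regulon, which is transcribed at high rate in cells growing on glucose. Subcomplexes join in order: UTP-A binds the leading end of the precursor first, UTP-B and the U3 particle follow, and GTPases, RNA helicases and late factors complete and later dismantle the structure.

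The deposited data were 1 list of Pol II peaks for each strain, made from its libraries after pooling: 1628 peaks in dbp2Δ and 1642 in wild type, from 4030024 and 3648848 immunoprecipitate fragments kept after duplicate removal. Single replicates cannot be read from these lists, so the spread between replicates is unknown, no test between the strains was possible and no p-value is given. Differences between the strains are therefore values of 2 pooled lists, set beside the same measure over all protein-coding genes. The fragment size that the peak caller determined was 290 bp in dbp2Δ and 260 bp in wild type, and depth moved with it. Their part in peak edges and widths was not tested, and breaks are also given at a common joining distance. DBP2 itself was covered over 0% of its length in dbp2Δ and 100% in wild type.

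A gene was counted as having a peak when peaks covered at least 50% of its coding length. By this rule 40 of the 47 members had a peak in dbp2Δ and 36 in wild type, against 20.6% of all protein-coding genes in dbp2Δ and 19.9% in wild type. In both strains 35 members had a peak, against 16.9% of all genes. A further 5 members met the rule in dbp2Δ and not in wild type, against 3.70% of all genes. In wild type and not in dbp2Δ 1 member met it, against 3.00%, and 6 met it in neither. Of all genes 4583 met it in neither, which lowers the all-gene shares, 1017 in both, 222 in dbp2Δ only and 180 in wild type only. Relative to the genes with a peak in both strains, neither 1-strain count was larger for the members than for all genes. Pol II peaks lay over the whole coding region of 26 members in dbp2Δ and 23 in wild type, against 14.3% and 14.4% of all genes. The median covered share was 100% in dbp2Δ and 97.9% in wild type, whereas the median over all protein-coding genes was 0% in either strain. Members were longer than most genes, with a median coding length of 1728 bp (381 to 7482 bp) against 1200 bp, and among the 37 members of at least 1000 bp a peak was present for 32 in dbp2Δ and 27 in wild type, against 15.7% and 14.3% of the 3555 other genes of that length.

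**Figure D1:**
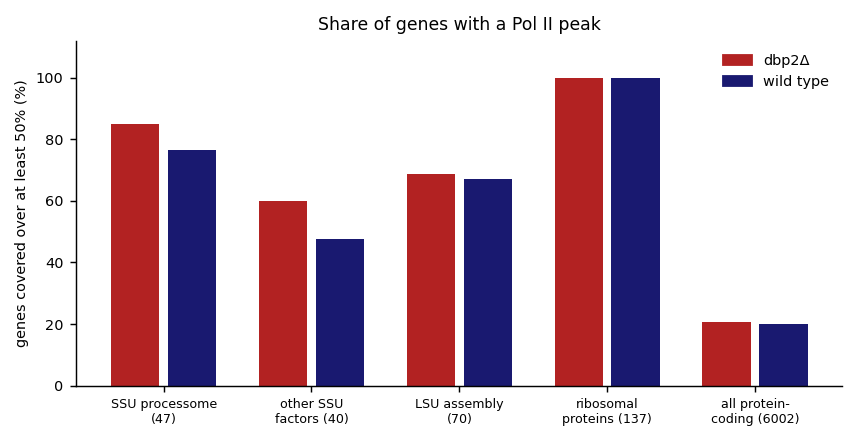
Share of genes (percent, vertical axis) covered over at least 50% of their coding length by Pol II peaks, dbp2Δ in red and wild type in dark blue, for 5 gene lists with the number of genes in brackets. SSU processome genes stood at 85.1% and 76.6%, below ribosomal protein genes (100% in both) and far above all protein-coding genes (20.6% and 19.9%).

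The UTP-A subcomplex, the first to bind the precursor, met the rule in either strain with 7 of its 7 genes. UTP5, UTP9, UTP10 and UTP15 were covered over 100% of their length in dbp2Δ and in wild type. NAN1 was covered over 99.6% in dbp2Δ and 100% in wild type. UTP4 was covered over 99.1% in dbp2Δ and 88.3% in wild type, and UTP8 over 94.7% in dbp2Δ and 68.9% in wild type. The subcomplex as a whole was thus occupied in either strain, and the shortfall in wild type lay in UTP4 and UTP8.

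UTP-B, a scaffold built largely of WD-repeat proteins, had a peak for 6 of 6 genes in dbp2Δ and 5 of 6 in wild type. PWP2 was covered over 100% in both. UTP13 (chromosome XII, 579318 to 581771) was covered over 100% in dbp2Δ and 37.7% in wild type, DIP2 over 100% and 73.2%, UTP18 over 100% and 64.4%, and UTP21 over 87.3% and 84.1%. UTP6 went the other way, with 72.1% covered in dbp2Δ and 100% in wild type. The pair of UTP-C genes had peaks in both strains, UTP22 over 98.4% in dbp2Δ and 71.7% in wild type and RRP7 over 100% in both.

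The box C/D core of the U3 particle was completely covered: NOP1, the fibrillarin methyltransferase gene, NOP56, NOP58, SNU13 and the U3-specific RRP9 stood at 100% in both strains. It was the only subcomplex whose genes were all fully covered in both strains. The genes of the MPP10 group differed among themselves. MPP10 was covered over 100% in both strains and IMP4 over 100% in dbp2Δ and 97.9% in wild type. IMP3 (chromosome VIII, 393534 to 394085), a short gene of 552 bp, was covered over 5.07% in dbp2Δ and 100% in wild type, the largest difference in favour of wild type among the members. SAS10 met the rule in neither strain, with 20.7% in dbp2Δ and 14.9% in wild type.

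Of the 4 RNA helicase genes among the members, 3 met the rule in neither strain. DHR2, which encodes a DEAH-box helicase, had no overlapping peak in either list. The gene of the other DEAH-box helicase, ECM16, which removes U3 from the precursor, was covered over 0% in dbp2Δ and 6.89% in wild type. ROK1, a DEAD-box helicase gene, was covered over 19.1% in dbp2Δ and 15.8% in wild type, and HCA4, another DEAD-box helicase gene, over 72.4% and 80.2%. Helicase genes outside the group varied as much: HAS1 (95.1% in dbp2Δ, 100% in wild type), PRP43 (100% and 66.2%) and DBP8 (100% and 50.2%) had peaks in both strains, and RRP3 (41.5% and 20.7%) and FAL1 (0% in both) in neither. BMS1, a GTPase gene (chromosome XVI, 139620 to 143171) was covered over 75.2% in dbp2Δ and 13.3% in wild type. RCL1, whose product binds Bms1, was covered over 100% in both.

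Among the 17 other factors, 15 had a peak in dbp2Δ and 12 in wild type. NOP14 (chromosome IV, 188154 to 190586), whose product works with Noc4 and Emg1, showed the largest difference in favour of dbp2Δ, with 96.4% covered in dbp2Δ and 5.71% in wild type. UTP7 (chromosome V, 324272 to 325936) was covered over 100% in dbp2Δ and 39.5% in wild type. UTP14 (chromosome XIII, 83090 to 85789), which encodes the activator of the Ecm16 helicase, was covered over 64.4% and 27.9%. These 3 genes, with UTP13 and BMS1, are the 5 that met the rule in dbp2Δ and not in wild type. Each of the 5 was overlapped by a wild-type peak over part of its length, so none was free of Pol II peaks in wild type.

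Of the remaining other factors, UTP20, UTP30 and ENP1 were covered over 100% in dbp2Δ and over 78.6%, 63.5% and 64.3% in wild type. UTP11 was covered over 63.5% in dbp2Δ and 94.8% in wild type, and UTP25 over 81.9% in dbp2Δ and 78.5% in wild type. RRP5, SOF1, NOC4, EMG1 and LCP5 stood at 100% in both strains. BFR2 and UTP23 had 97.9% and 97.1% in dbp2Δ and 100% in wild type. KRR1 (29.4% in dbp2Δ, 27.0% in wild type) and ENP2 (32.4% and 25.0%) met the rule in neither. Over the 47 members, 20 were covered over more of their length in dbp2Δ, against 23.0% of all protein-coding genes, 8 over more in wild type, against 12.8%, and 19 equally. The median difference was 0 percentage points, and the mean difference, dbp2Δ minus wild type, was 8.18 percentage points for the members and 1.38 for all protein-coding genes. Of all protein-coding genes 1380 were covered over more in dbp2Δ, 767 over more in wild type and 3855 equally. The last number includes the genes without a peak in either list, which lower the all-gene shares and mean. No mean over overlapped genes alone is given here.

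**Figure D2:**
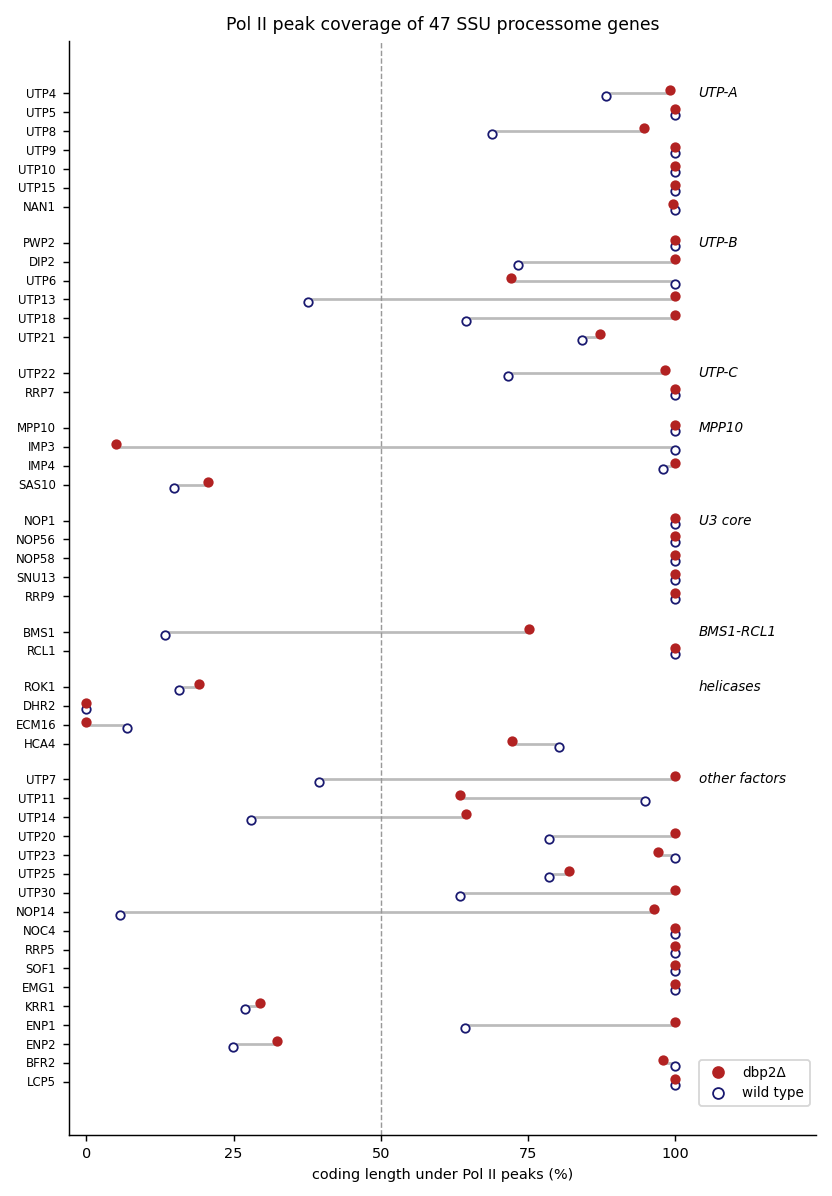
Percent of the coding length of each of the 47 members under Pol II peaks (horizontal axis), dbp2Δ as filled red points and wild type as open points, joined by a grey line and grouped by subcomplex. The dashed line marks the 50% rule, and the longest lines belong to IMP3 (5.07% in dbp2Δ, 100% in wild type), NOP14 (96.4% and 5.71%), UTP13, BMS1 and UTP7.

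Many members lay under separate peaks in wild type and under 1 peak in dbp2Δ. In wild type 15 members lay under 2 or more separate peaks, against 5.11% of all protein-coding genes, and in dbp2Δ 2 members did, against 3.15%. Of the 45 members overlapped by a peak in both lists, 13 had 2 or more peaks in wild type and a single peak in dbp2Δ, against 3.22% of all genes, and 0 had the reverse, against 1.13%. The other 2 members, HCA4 and UTP25, were broken in both strains. Taken over the genes overlapped in both lists, the 13 were 28.9%, and the same pattern held for 9.49% of all such genes. For members of at least 1000 bp the share was 34.3% and for other genes of that length 12.9%. All 13 were among the 20 members covered over more of their length in dbp2Δ. A gap between wild-type peaks itself lowers the wild-type coverage of a gene, so this is largely the same observation.

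In each of the 15 members the wild-type peaks included 1 with its summit in the first 33.3% of the gene or upstream and 1 with its summit in the final 33.3% or past the 3′ end. This is what most broken genes showed, since 273 of the 292 broken genes outside the group did so too.

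UTP8 had 3 wild-type peaks with summits at 48, 1136 and 2123 bp from the start, and 1 dbp2Δ peak with its summit at 2279 bp. UTP18 had 3 wild-type peaks with summits at 151, 852 and 1818 bp, and 1 dbp2Δ peak with its summit at 1155 bp. UTP22, a gene of 3714 bp, had 3 wild-type peaks with summits at 13, 2327 and 3878 bp, and 1 dbp2Δ peak of 3973 bp with its summit at 3902 bp. In these 3 genes the dbp2Δ summit lay nearer to the middle or last wild-type summit than to the first.

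UTP20 (chromosome II, 227636 to 235117), at 7482 bp the longest member, lay under 4 wild-type peaks of 333, 1139, 2979 and 3862 bp, and under 1 dbp2Δ peak of 9878 bp. The last wild-type peak and the dbp2Δ peak also covered the histone genes HTA2 and HTB2 and the gene ECM15 beyond its 3′ end. The longest wild-type breaks were those of BMS1, with 3079 bp between a peak of 840 bp at the 5′ end and one of 1341 bp at the 3′ end, UTP14 with 1947 bp, UTP13 with 1529 bp and UTP7 with 1008 bp. The BMS1 peaks covered only 4.36% and 8.95% of the gene, with summits at -348 bp from its start and 131 bp past its end. The second of them, like the dbp2Δ peak, also covered SAR1. The 3′ peak of UTP13 covered 2.49% of that gene, and the 3′ peak of UTP7 had its summit in SRG1. Over the 21 wild-type gaps within members the median was 448 bp, and the 2 gaps in dbp2Δ were 639 bp in HCA4 and 391 bp in UTP25.

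**Figure D3:**
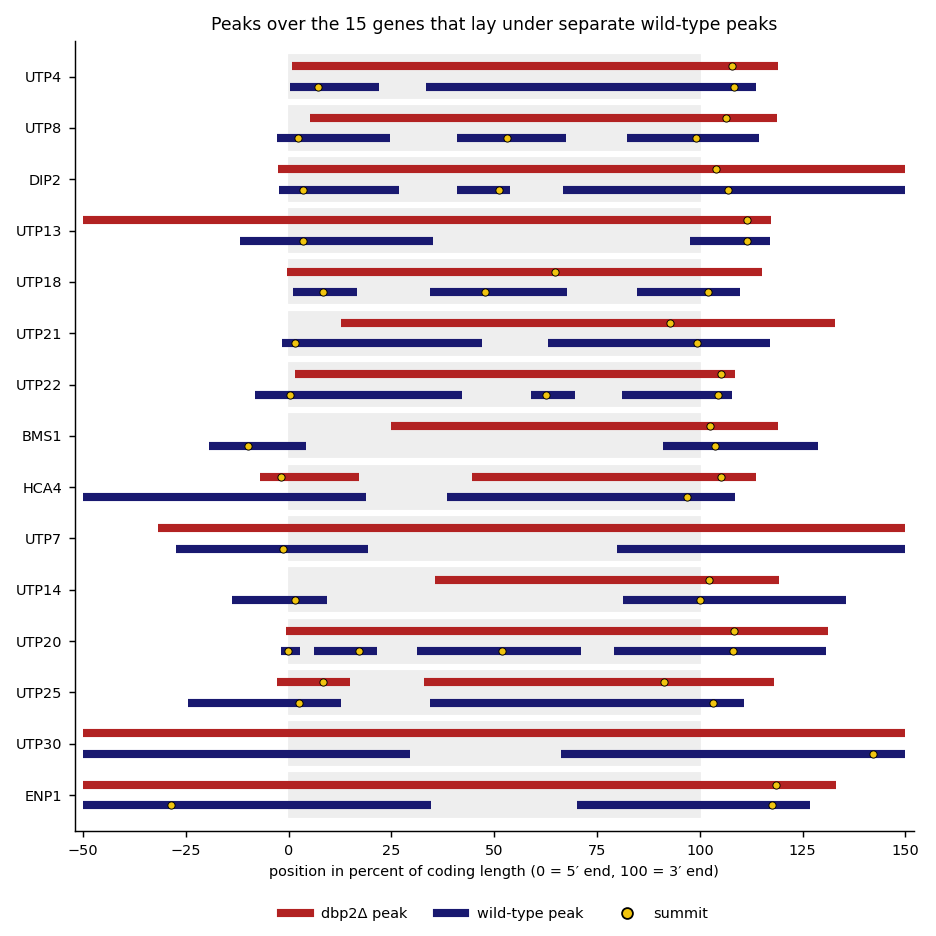
Peaks over the 15 members with separate wild-type peaks, drawn against position in percent of coding length, with dbp2Δ peaks (red) above wild-type peaks (dark blue), summits as yellow points and the coding region shaded. Peaks and summits beyond 50% of a gene length outside the gene are not drawn. Each gene has a wild-type peak with an early summit and another with a late one. UTP8, DIP2, UTP18, UTP22 and UTP20 also have a wild-type peak with its summit in the middle of the gene. In UTP4, HCA4 and UTP25 the later wild-type peak covers 66.6%, 61.4% and 65.7% of the gene. In dbp2Δ 13 of the 15 genes have 1 peak, HCA4 and UTP25 being the exceptions.

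Breaks depend on where the peak caller stops joining sites. The shortest distance between neighbouring peaks was 291 bp in the dbp2Δ list and 261 bp in the wild-type list, each 1 bp over the fragment size of its list. When wild-type peaks less than 290 bp apart were joined, 14 members remained under 2 or more wild-type peaks, or 29.8% of the members against 4.77% of all protein-coding genes. The 4.77% counts genes that no wild-type peak overlapped, and no share over overlapped genes is given after joining. Before joining, the shares of genes overlapped in wild type were 32.6% of members and 13.2% of all genes. At 1000 bp or longer they were 38.9% of members and 18.9% of other genes. The member that dropped out was UTP4, whose wild-type peaks of 507 and 1874 bp were 264 bp apart, and which lay under 1 peak of 2754 bp in dbp2Δ. In UTP20 joining left 3 of the 4 wild-type peaks. Most of the split pattern rested on peaks of low enrichment. When peaks under 2-fold were left out, 0 members in dbp2Δ and 1 in wild type had 2 or more peaks, and the median covered share was 99.6% in dbp2Δ and 33.3% in wild type. No share over all protein-coding genes is given at this cutoff. It lay below the median fold of the dbp2Δ list, 2.04, and above that of the wild-type list, 1.99. Fold enrichment does not compare the lists, so the difference between the strains at this cutoff is not interpreted.

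Along the gene, the strains differed at both ends and in the middle. At 125 bp before the 5′ end, a peak lay over 36.2% of the 47 members in dbp2Δ and 57.4% in wild type. At 3% of the gene the shares were 70.2% and 89.4%. At 51% of the gene they were 85.1% in dbp2Δ and 68.1% in wild type. At 375 bp past the 3′ end they were 68.1% in dbp2Δ and 53.2% in wild type. The lowest share inside the gene was 61.7% in wild type, at 31% of the gene, where dbp2Δ stood at 76.6%. In dbp2Δ fewer members were thus covered before the 5′ end and up to 21% of the gene, and more from 23% of the gene to beyond the 3′ end.

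The other protein-coding genes with a peak in the strain concerned showed the same order at the ends: 60.3% in dbp2Δ and 68.6% in wild type at 125 bp before the 5′ end, and 76.8% and 66.4% at 375 bp past the 3′ end. At 51% of the gene these genes stood at 96.9% in dbp2Δ and 93.6% in wild type. That set was chosen by having a peak. Among members chosen in the same way, 40 in dbp2Δ and 36 in wild type, the shares at 51% of the gene were 100% in dbp2Δ and 88.9% in wild type. A single peak that meets the coverage rule must reach the middle of the gene. In dbp2Δ all 40 met the rule by a single peak, so their 100% follows from the choice of genes. In wild type 28 of the 36 did, so the lower share there restates the separate peaks described above. At 31% of the gene these members stood at 90% in dbp2Δ and 77.8% in wild type. The other genes stood at 89.7% and 90.9% there. This position was picked as the lowest wild-type share of the members, and the other genes were not matched to them for length. The lower wild-type share of the members at this point was not tested.

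**Figure D4:**
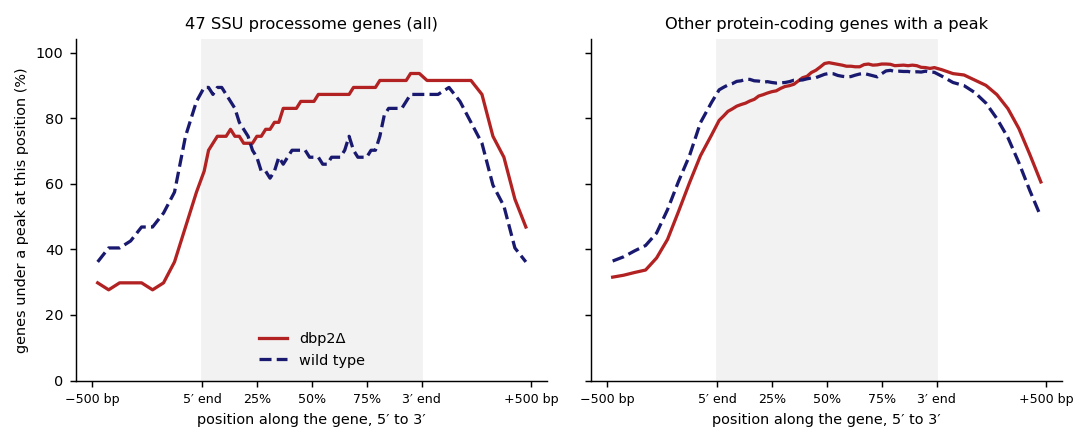
Percent of genes under a Pol II peak (vertical axis) at positions from 500 bp before the 5′ end to 500 bp past the 3′ end, the coding region scaled to 50 bins and shaded, dbp2Δ as a solid red line and wild type as a dashed dark blue line. The left panel holds the 47 members, where at 31% of the gene dbp2Δ stands at 76.6% and wild type at its lowest, 61.7%, and the right panel holds other protein-coding genes with a peak in that strain.

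The summit, the highest point of a peak, lay late for most members in dbp2Δ, and in wild type the members were divided between late and early summits. For the highest peak overlapping each member, the median summit position was 105% of coding length in dbp2Δ, just past the 3′ end, and 5.92% in wild type, against 102% and 84.1% for all overlapped protein-coding genes. The wild-type median comes from a distribution with summits at both ends of the gene. In dbp2Δ 38 of 45 overlapped members had this summit in the final 33.3% of the gene or past its 3′ end, against 71.8% of all overlapped protein-coding genes, and 5 had it in the first 33.3% or upstream, against 23.9%. In wild type 21 of 46 had it late, against 52.7%, and 25 early, against 43.8%. Of the 45 members overlapped in both lists, 18 had a late summit in dbp2Δ and an early one in wild type, against 19.4% of all such genes, and 0 had the opposite combination. In 6 of the 18 the early wild-type summit lay in an upstream neighbour: RRP7 (in HIS4), HCA4 (KAR2), UTP30 (TIF1), NOP14 (RPN5), KRR1 (FYV5 and ADF1) and ENP1 (HIS7). HCA4, UTP30 and ENP1 also had a lower wild-type peak with a late summit. In the remaining 12 the wild-type summit lay in no other gene, and over all protein-coding genes with the combination 12.2% had it in another gene. Of these 12, UTP22 and UTP25 also had a slightly lower wild-type peak with a summit past the 3′ end. Its fold was 1.69 against 1.88 for the early peak in UTP22, and 1.79 against 1.94 in UTP25.

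The same direction was seen over all genes, so it is not particular to the members. Other small-subunit factors had a late summit for 28 of 34 genes in dbp2Δ and 13 of 30 in wild type. Large-subunit assembly factors had one for 47 of 65 and 26 of 62, and ribosomal protein genes for 100 of 137 and 26 of 137. Over genes overlapped in both lists, 40% of the members had a late dbp2Δ and an early wild-type summit. So did 40% of other small-subunit factors, 32.3% of large-subunit assembly factors and 49.6% of ribosomal protein genes. With peaks that covered at least 50% of no other gene, 26 of 28 members had a late summit in dbp2Δ and 12 of 25 in wild type. Such a peak can still have its summit in a neighbour. In dbp2Δ this was so for UTP6 (in ADA2), IMP3 (SKG6), UTP23 (DNL4), NOP14 (ATG9) and ENP1 (RRT2). Among the other protein-coding genes with such a peak the shares were 74.5% and 49.9%.

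Individual genes show how far apart the summits of the strains lay. The lists give only the highest point of each peak, and not the height elsewhere along it. How much of the Pol II signal differed in position was therefore not tested. RRP5 (chromosome XIII, 725934 to 731123), a gene of 5190 bp that encodes an RNA-binding factor needed for both ribosomal subunits, lay under 1 peak in each strain. Its summit was 5263 bp from the start in dbp2Δ, which is 74 bp past the 3′ end, and 24 bp from the start in wild type. UTP10 (chromosome X, 212000 to 217309), the 5310 bp gene of a large UTP-A scaffold protein, had its summit at 4483 bp in dbp2Δ and 50 bp in wild type. The RRP5 peak was 5595 bp long in dbp2Δ and 5607 bp in wild type, and the UTP10 peak 5991 bp in dbp2Δ and 5562 bp in wild type.

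NAN1 had its summit at 2457 bp in dbp2Δ and 92 bp in wild type, UTP15 at 1211 and 89 bp, NOP58 at 1330 and 93 bp, NOP56 at 1759 and 74 bp, and SOF1 at 1654 and 70 bp. NOP1, with a coding length of 984 bp, had its summit at 835 bp in dbp2Δ and 4 bp before the start in wild type. In these 8 genes the wild-type summit lay between 4 bp before and 93 bp after the start of the coding region. In others it lay at nearly the same place: UTP9 had it at 82 bp in dbp2Δ and 80 bp in wild type, and UTP23 at 923 and 921 bp. PWP2 had it past the 3′ end in dbp2Δ, at 2936 bp, and inside the gene in wild type, at 2534 bp.

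Summits past the 3′ end mostly lay close to it. In dbp2Δ the highest peak of 18 members had its summit past the 3′ end and between genes, at a median of 153 bp (50 to 6531 bp) beyond the coding region, and that of 11 members in another gene downstream. In wild type the numbers were 11, at a median of 191 bp (2 to 6428 bp), and 4. The farthest value in both was that of RRP9. Inside the gene lay 12 summits in dbp2Δ and 19 in wild type, and upstream 4 in dbp2Δ and 12 in wild type. Distances past the coding region include the 3′ untranslated region.

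**Figure D5:**
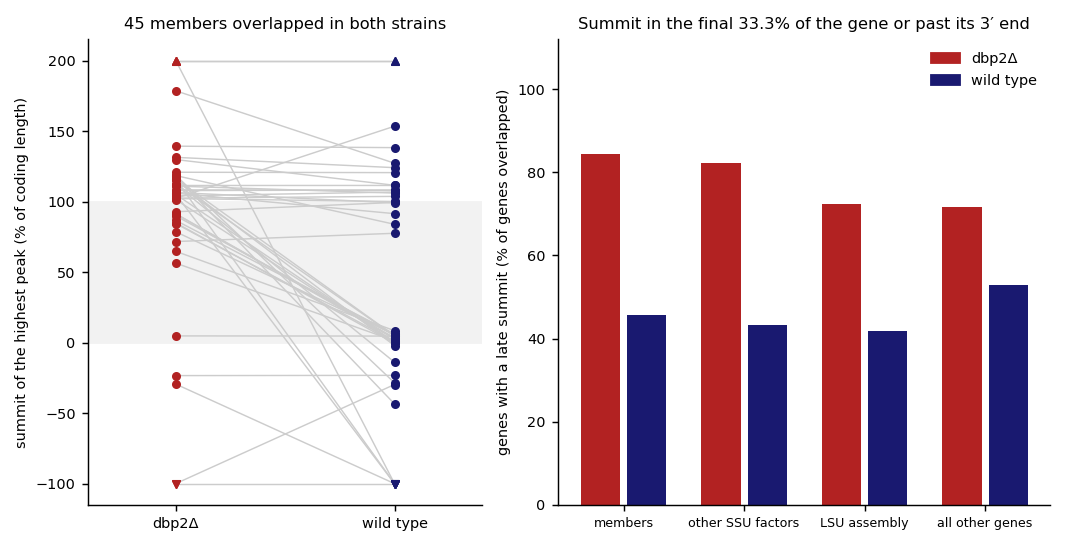
Left panel, summit position of the highest peak over each of the 45 members overlapped in both strains, in percent of coding length (coding region shaded), with lines joining the strains and triangles for values beyond −100 or 200. Right panel, percent of overlapped genes whose summit lay in the final 33.3% of the gene or past its 3′ end, which was 84.4% in dbp2Δ and 45.7% in wild type for the members and 71.6% and 52.8% for all other protein-coding genes.

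Peak edges were compared on the 14 members for which each list held exactly 1 peak covering 50% or more of the gene and less than that of any other gene. Measured outward from the gene, the median 5′ edge was at -15.5 bp in dbp2Δ, inside the gene, and at 90 bp in wild type. These medians include HCA4 and UTP25, whose edges in both strains were those of the second of 2 peaks. They lay at -1034 and -714 bp in dbp2Δ and at -892 and -742 bp in wild type, so they bound gaps within these genes. The median of the single differences, dbp2Δ minus wild type and positive outward, was -84 bp, against -35 bp for 367 other protein-coding genes. It was negative in 9 of 14 members and in 77.7% of the other genes. The 3′ edge reached a median of 392 bp past the gene in dbp2Δ and 313 bp in wild type, with a median difference of 71.5 bp, against 68 bp for the other genes. It was positive in 12 of 14 members and in 284 of the 367 other genes. Among the members UTP15 had no difference and NAN1 one of -26 bp.

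The largest 5′ differences were those of UTP4 (759 bp, its wild-type value being that of the second of 2 peaks), UTP6 (-435 bp), PWP2 (-331 bp), NOP58 (262 bp) and UTP11 (-236 bp). In UTP6 the dbp2Δ peak began 369 bp inside the gene, whereas the wild-type peak began 66 bp before it. The largest 3′ differences were those of UTP10 (378 bp), IMP4 (342 bp), BFR2 (220 bp), UTP25 (156 bp) and UTP4 (121 bp). In IMP4 the dbp2Δ peak ended 324 bp past the gene and the wild-type peak inside it, at -18 bp.

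Many members shared a peak with a neighbour, so their fold enrichment need not be their own. The fold enrichment is the authors' ratio of immunoprecipitate to local background at the summit, and it orders peaks within a list and does not compare the lists. The highest peak of 17 of 45 members in dbp2Δ and 21 of 46 in wild type also covered at least 50% of another gene. These are 37.8% in dbp2Δ and 45.7% in wild type, against 46.6% and 47.2% of all overlapped protein-coding genes. UTP7 had the highest value of the members in dbp2Δ, 16.4, and 11.9 in wild type, but the summit of both peaks lay in SRG1, a non-coding RNA gene beside SER3. NOC4 had 9.80 in dbp2Δ and 12.04 in wild type, with the summit in the small nucleolar RNA gene SNR45, under a peak that also covered the asparagine synthetase gene ASN1.

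UTP5 stood at 4.69 in dbp2Δ and 9.30 in wild type, with the summit in HPT1, a purine salvage gene. UTP30 stood at 8.91 in dbp2Δ, with the summit in the small nucleolar RNA gene SNR42, and at 3.23 in wild type, with the summit in TIF1, which encodes the translation factor eIF4A. EMG1 (6.23 in dbp2Δ, 6.99 in wild type) shared its peak with the ribosomal protein gene RPL37A, SNU13 (5.26 and 5.16) with the vacuolar ATPase gene VMA3, and UTP20 (4.35 and 6.13) with the histone genes. RRP9 (4.64 and 3.44) lay at one end of peaks of 10751 bp in dbp2Δ and 9593 bp in wild type, whose summits were 6531 and 6428 bp past its end. For these genes the lists show that Pol II covered the region, and not how much of the signal belonged to the member.

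DIP2 (5.32 in dbp2Δ, 2.94 in wild type) shared its peaks with ZRT2, UTP14 (3.17 and 2.38) shared its wild-type peak with PRE8, and NOP56 (5.02) shared its dbp2Δ peak with PWP1. The wild-type coverage of NOP14 came from a peak over its divergent neighbour RPN5, with its summit at -338 bp from the NOP14 start. In dbp2Δ the peak over NOP14 had its summit 294 bp past the 3′ end, in the convergent gene ATG9. The dbp2Δ coverage of IMP3 came from a peak with its summit 433 bp past the gene, in SKG6. Thus the 2 members with the largest differences in coverage were each reached, in the strain of low coverage, by the margin of a peak with its summit in a neighbouring gene.

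Members with a peak of their own, its summit inside the gene and no other gene covered, numbered 10 in dbp2Δ and 17 in wild type. In dbp2Δ these were NOP1 (5.34), NOP58 (3.81), UTP25 (2.61), UTP10 (2.49), UTP15 (2.20), NAN1 (2.13), IMP4 (1.83), UTP18 (1.82), SAS10 (1.43) and ROK1 (1.28). The 10 highest in wild type were NOP58 (3.49), UTP9 (3.35), NOP56 (2.85), UTP10 (2.47), NAN1 (2.45), UTP15 (2.31), PWP2 (2.21), RRP5 (2.11), UTP8 (2.101) and UTP6 (2.04). A U3 core gene led both orders. The median fold of the highest peak was 2.55 in dbp2Δ and 2.40 in wild type, the median of all overlapped protein-coding genes was 2.34 and 2.44, and 4 members in each list had a peak among its top 10%.

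Adjacent genes were not other members, since 0 pairs of members were neighbours on a chromosome. The upstream neighbour was divergent for 40.4% of members, against 51.6% of all protein-coding genes, and the downstream neighbour convergent for 57.4%, against 51.4%. The median distance to the downstream neighbour was 282 bp, against 302 bp, so a peak that reached 392 bp past the gene commonly entered the next gene.

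Beyond the 47 members, 40 other genes of small-subunit assembly were examined. A peak was present for 24 in dbp2Δ and 19 in wild type, in both strains for 19, in dbp2Δ and not in wild type for 5, and in the opposite case for 0. The 5 were KRE33, an rRNA acetyltransferase gene (80.1% covered in dbp2Δ, 12.8% in wild type), RRP8, an rRNA methyltransferase gene (100% and 47.8%), CKA1 and CKA2, the catalytic subunits of casein kinase 2, a partner of UTP-C (61.1% and 7.77%, 50.3% and 0%), and the kinase gene RIO1 (56.8% and 0%). CKB1 and CKB2, the regulatory subunits, had 0% in both. Separate wild-type peaks lay over 9 of the 40, and 1 was broken in dbp2Δ, the same order as in the members.

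The 70 large-subunit assembly factor genes had a peak for 48 in dbp2Δ and 47 in wild type, with 5 and 9 genes under 2 or more peaks. The 137 ribosomal protein genes had a peak in both strains throughout and 0 under 2 or more. The U3 RNA has a gene pair of its own. SNR17A was covered over 100% in both strains, under peaks with a fold of 15.7 in dbp2Δ and 19.2 in wild type that also covered RPL33B. SNR17B was covered over 100% under peaks with 6.90 in dbp2Δ and 10.4 in wild type, shared with POC4 and RPL33A. In SNR17B the wild-type summit lay inside the gene and the dbp2Δ summit outside it.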

How the data were processed

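The labels describe libraries of Pol II immunoprecipitates and inputs, made from DNA per the labels' protocols although their molecule field names RNA. Build R64 and the tools Bowtie2 2.3.3.1, Trimmomatic 0.36 and MACS2 2.1.2 are listed, per the submitters' processing notes. Per the file headers, the authors pooled 3 immunoprecipitates and 3 inputs per strain and called peaks with MACS 2.1.2 in paired-end mode at a q-value cutoff of 0.05, keeping 1 duplicate per position, with local background over 1000 and 10000 bp. The deposited lists give positions in bp, a pileup signal, a fold enrichment ratio, and −log10 p- and q-values. The signal and the −log10 values were not used. Peaks were intersected with RefSeq gene spans of assembly R64 in Python 3.11.15. Of the protein-coding lengths 96.4% were multiples of a codon, so spans are coding lengths, introns included. Strand came from the systematic name. Coverage is the union of peaks. The functions were checked on made-up input with known answers.

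The members, lists and measures were chosen with earlier results of these data known. Named are members with a peak in 1 strain or neither, the largest coverage and edge differences, the highest own peaks and up to 12 members with a summit outside the gene, and all 47 are accounted for. Alternatives were other coverage minimums, peaks of at least 2-fold enrichment, a common minimum peak length, single-peak coverage and joined peaks. Promoter motifs were planned and not analysed here.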

Additional observations from a re-analysis of the deposited data

How the results depend on the processing

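Across the alternatives, 55 recomputed values stayed within 1.5 times of the count reported or within the 95% binomial interval around the median. The members with a peak numbered 12 in dbp2Δ when a summit inside the gene was required, and 22 in wild type with peaks of at least 2-fold enrichment. The 5 members with a peak in dbp2Δ alone became 0 with any overlap, 3 at a minimum of 25%, 10 at 75%, 11 at 90%, 11 with 2-fold peaks, 13 with coverage by a single peak and 1 by summit. The 1 in wild type alone became 4 at 75%, 3 at 90% and 14 by summit. With 2-fold peaks, the median covered share in wild type was 33.3%, 5 members were covered more in wild type, and 0 members in dbp2Δ and 1 in wild type lay under 2 or more peaks. No all-gene share is given at that cutoff. The median summit position in dbp2Δ was 84.7% for the peaks with a summit inside the gene, which that choice itself bounds. Late summits in wild type numbered 12 when peaks over other genes were left out, which leaves fewer genes. The 5′ edge difference reversed to 24 bp over the 5 members with summits inside the gene in both strains; the cause was not tested. The alternatives that join peaks, count members by direction of coverage, or count late summits and broken genes were chosen after seeing the data. No paired analysis was possible because replicates were pooled before peaks were called, and for the same reason single replicates could not be left out. The planned motif alternatives were not run. Depth limits the lists to sites past the caller's cutoff: a member without a peak may still be transcribed.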

Other observations

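Distances between neighbouring peaks were bounded in both lists. Over all 1612 neighbouring pairs in dbp2Δ none was closer than 291 bp, and over 1626 pairs in wild type none was closer than 261 bp, where 43 pairs were closer than 290 bp. Joining those pairs left 1599 wild-type peaks, and 2 or more separate peaks then lay over 3.15% of all protein-coding genes in dbp2Δ and 4.77% in wild type. For the SSU processome genes the shares were 4.26% in dbp2Δ and 29.8% in wild type. The all-gene shares count genes that no peak overlapped, which lowers them.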
